A study of Mus musculus with 13 samples.

Results

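Immediate early genes were measured in gluteal white adipose tissue (WAT) of mice raised at a cool or at a thermoneutral temperature. The 10 genes are *Fos*, *Fosb*, *Jun*, *Junb*, *Egr1*, *Nr4a1*, *Nr4a2*, *Nr4a3*, *Atf3* and *Dusp1*, named as a list and matched by symbol to rows of a table of 34419 genes, and all 10 were among the 17779 genes that passed a filter on low counts. Male C57BL/6J mice were kept at 22°C (n = 7) or 29°C (n = 6) until 13 weeks of age, the posterior hair of both groups was removed after weaning, and each mouse was single housed with little bedding. RNA of the whole depot was sequenced as 1 library per mouse, so that fewer cells of a type and less RNA per cell cannot be told apart. Levels are given in CPM, counts scaled to the TMM-normalized size of each library. Fold changes are 22°C relative to 29°C from edgeR's quasi-likelihood test over all tested genes, with the standard error (SE) and the Benjamini-Hochberg adjusted p (P-adj). Genes with P-adj below 0.1, the threshold of the study, are called changed. The study itself tested this tissue with DESeq2, which is used here as an alternative.

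Immediate early genes are transcribed within minutes of a stimulus, because the factors that switch them on, such as CREB, SRF and its ETS partners, are already present and need only to be phosphorylated. Most of them encode transcription factors that in turn set later waves of transcription, and their mRNAs are short-lived, so that a level reflects the recent past of a tissue. In adipose tissue they respond to β-adrenergic signals through cAMP, in muscle to contraction, and in either tissue to stress.

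The libraries held between 22356637 and 25245785 counts, and the totals of 22°C replicates 1 to 5 lay below those of all other mice. Libraries also differed in skeletal muscle RNA. The 22 genes of a skeletal muscle list took 0.116% to 9.27% of a library at 22°C and 0.0201% to 0.891% at 29°C, and none of them was at 0 in all mice. *Acta1*, the actin of skeletal muscle fibers, had a lowest level of 173, a median of 1314 and a highest level of 14968 CPM at 22°C, and 72.0, 395 and 1584 CPM at 29°C. The groups overlapped, and the log2 fold change of *Acta1* was 2.93 ± 1.23 (SE; edgeR P-adj = 0.227). The summed level of 10 mature adipocyte genes was between 15336 and 23357 CPM at 22°C and between 18909 and 23312 CPM at 29°C.

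The sequence before the start of transcription was examined for binding motifs of known immediate early regulators. RefSeq promoters (build GRCm38.p6) were at hand for 9 of the 10 genes, that of *Egr1* not among them. In the 250 bases before the start, TGACG, the half-site of the CREB and ATF element, was found on either strand in 8 of these 9 promoters, with *Jun* the exception, against 17.8% of all 32851 RefSeq promoters and 24.5% of the 15150 promoters of tested genes. The full element TGACGTCA, which contains the shorter motif, was found only in *Dusp1* (1.55% of all promoters). The CArG box of SRF (1.47% of all promoters), the AP-1 site TGANTCA (6.75%) and the NR4A site AAAGGTCA (1.34%) were in none of the 9. TATAAA, also read on either strand, was found in *Fos* and *Nr4a2*, against 12.4% of all promoters and 7.11% of those of tested genes. In *Nr4a2* it is the reverse complement, at 164 to 159 bases before the start. A match describes the letters of this window and no site of binding. The lack of a match does not speak of sequence farther from the start or of sites with other letters. The 150 bases before the start are given for 6 genes, because *Fos*, *Fosb* and *Junb* varied together over the mice and *Nr4a1*, *Nr4a2* and *Atf3* varied with muscle RNA. They lie at chr12:85473740-85473889 (plus strand) for *Fos*, chr7:19310046-19310195 (minus strand) for *Fosb*, chr8:84978749-84978898 (minus strand) for *Junb*, chr15:101266696-101266845 (plus strand) for *Nr4a1*, chr2:57124004-57124153 (minus strand) for *Nr4a2* and chr1:191183334-191183483 (minus strand) for *Atf3*. Each reads 5′ to 3′ on the strand of its gene, and capitals mark TGACG or its reverse complement CGTCA.
Fos: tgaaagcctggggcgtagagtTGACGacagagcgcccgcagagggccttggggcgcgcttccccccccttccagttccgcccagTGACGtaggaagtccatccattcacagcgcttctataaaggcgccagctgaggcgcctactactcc
Fosb: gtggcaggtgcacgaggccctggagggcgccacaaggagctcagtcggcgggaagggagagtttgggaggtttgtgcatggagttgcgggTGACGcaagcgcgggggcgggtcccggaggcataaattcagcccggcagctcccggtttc
Junb: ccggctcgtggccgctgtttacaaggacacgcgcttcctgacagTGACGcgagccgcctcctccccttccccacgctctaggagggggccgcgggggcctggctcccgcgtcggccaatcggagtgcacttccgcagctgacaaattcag
Nr4a1: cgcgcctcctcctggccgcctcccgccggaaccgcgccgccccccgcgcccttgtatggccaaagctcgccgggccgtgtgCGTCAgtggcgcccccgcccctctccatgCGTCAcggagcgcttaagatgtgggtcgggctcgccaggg
Nr4a2: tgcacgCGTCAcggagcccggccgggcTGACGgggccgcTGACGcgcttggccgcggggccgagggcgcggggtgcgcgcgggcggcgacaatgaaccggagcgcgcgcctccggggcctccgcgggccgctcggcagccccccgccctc
Atf3: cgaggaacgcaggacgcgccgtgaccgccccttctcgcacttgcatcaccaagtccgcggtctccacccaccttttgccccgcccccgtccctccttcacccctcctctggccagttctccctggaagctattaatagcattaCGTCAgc
The stretch of *Fos* holds TGACG at 129 to 125 and at 66 to 62 bases before the start, with TATAAA at 33 to 28. In *Nr4a1* the reverse complement stands at 69 to 65 and at 40 to 36 bases before the start, in *Fosb* TGACG stands at 60 to 56, and in *Atf3* the reverse complement lies at 7 to 3.

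The first comparison was of the 2 temperatures. *Nr4a1*, an orphan nuclear receptor, was the only gene of the 10 called changed by edgeR, and it was 6.11-fold higher at 22°C. DESeq2, the test of the study, called *Nr4a1*, *Nr4a3* and *Atf3*, and 1676 of all genes. All 10 genes had a log2 fold change above 0, as did 51.6% of all tested genes, and their median was 0.86 against 0.0074 over all genes. Of all tested genes, 1.94% were called by edgeR in either direction and 0.731% were called higher at 22°C, against 1 of the 10. The groups overlapped for each of the 10 genes, whereas 1.24% of all tested genes had no overlap between the temperatures.

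**Figure D1:**
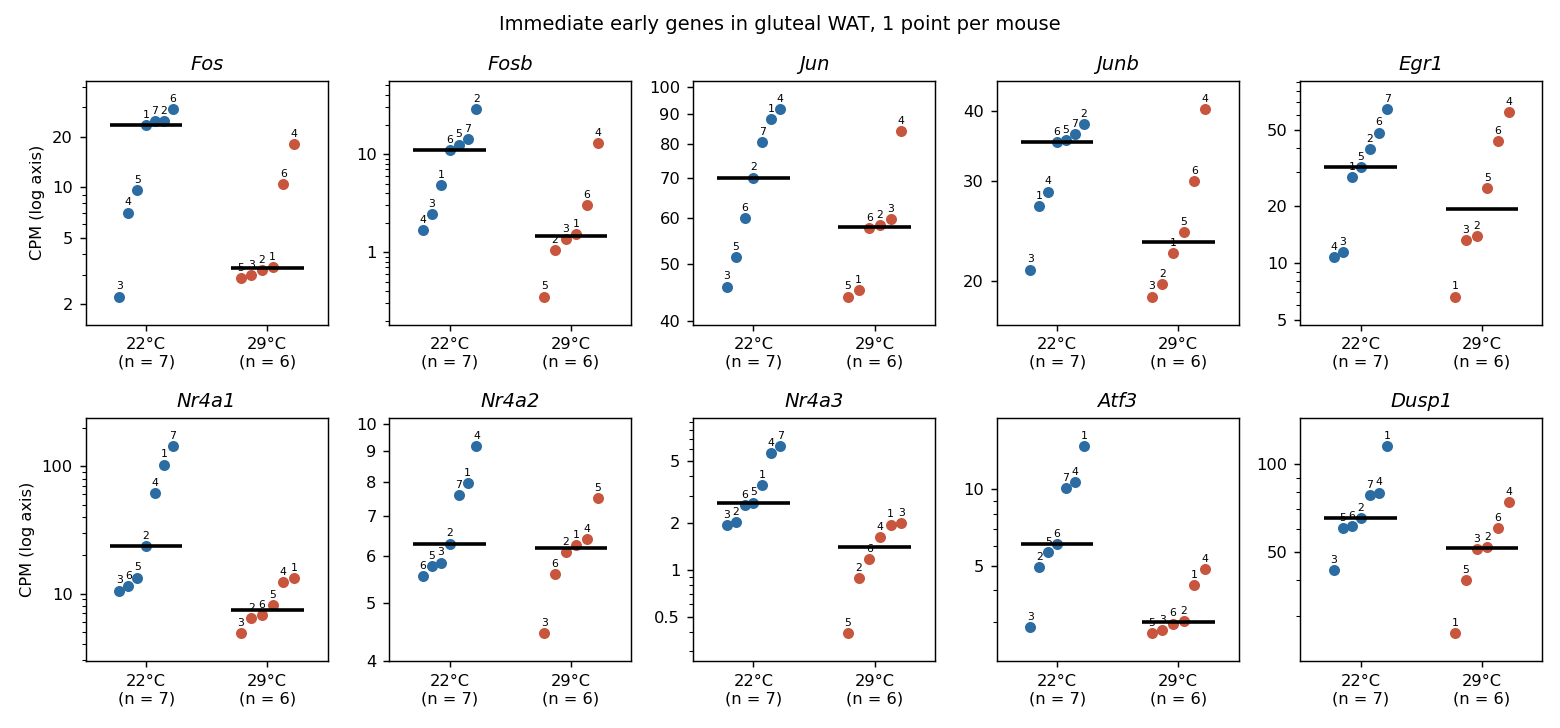
Level of each immediate early gene in each mouse (CPM, log axis, a scale of its own in each panel) at 22°C (blue, n = 7) and 29°C (red, n = 6), with the replicate number above each point and the median as a line. *Nr4a1* at 22°C spreads from 10.6 to 144 CPM, and replicate 4 is the highest mouse at 29°C for *Fos*, *Fosb*, *Jun*, *Junb*, *Egr1*, *Atf3* and *Dusp1*.

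The Nr4a family encodes nuclear receptors that act without a known hormone and are induced by cAMP and by exercise. *Nr4a1* (ENSMUSG00000023034.8, also named Nur77) had a lowest level of 10.6, a median of 23.5 and a highest level of 144 CPM at 22°C, and of 4.87, 7.42 and 13.1 CPM at 29°C. Replicates 7, 1 and 4 at 22°C, with 144, 103 and 61.8 CPM, stood above all other mice, and the 3 lowest mice at 22°C lay within or just above the range at 29°C. The mean of the 7 mice at 22°C was 52.6 ± 53.0 CPM (SD), that of the 6 mice at 29°C was 8.58 ± 3.34 CPM (SD), and the log2 fold change was 2.61 ± 0.66 (SE; edgeR P-adj = 0.0899). The call held without 22°C replicate 2, 3, 5 or 6 and was lost without any 1 of the other 9 mice, with a log2 fold change between 2.11 and 2.79 and P-adj between 0.0627 and 0.209. *Acta1* was highest in the same 3 mice, and without 22°C replicates 1 and 7, the libraries farthest from the others in *Acta1*, the log2 fold change of *Nr4a1* was 1.49 ± 0.47 (SE; edgeR P-adj = 0.169). Among the libraries with higher totals, 2 at 22°C and 6 at 29°C, it was 3.18 ± 0.68 (SE; edgeR P-adj = 0.231), and the libraries with lower totals all came from 22°C.

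*Nr4a3* (ENSMUSG00000028341.10, also named NOR-1), the least abundant of the 10 per length of its exons, had a lowest level of 1.95, a median of 2.71 and a highest level of 6.29 CPM at 22°C, and of 0.391, 1.40 and 2.01 CPM at 29°C. Only the lowest mouse at 22°C, replicate 3, fell inside the range of the 29°C group. The log2 fold change of 1.39 (SE 0.39) missed the threshold (edgeR P-adj = 0.117) and passed it without 22°C replicate 6 (P-adj = 0.0976) and with DESeq2 (P-adj = 0.0108). *Nr4a2* (ENSMUSG00000026826.14, also named Nurr1), best known for its part in dopamine neurons, had 5.55, 6.29 and 9.19 CPM as the lowest, median and highest level at 22°C and 4.45, 6.18 and 7.51 CPM at 29°C. Its medians nearly coincided, and the log2 fold change was 0.19 ± 0.15 (SE; edgeR P-adj = 0.536).

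*Atf3* (ENSMUSG00000026628.14), a stress-induced repressor of the ATF and CREB family, had a lowest level of 2.85, a median of 6.09 and a highest level of 14.9 CPM at 22°C, and of 2.70, 2.98 and 4.85 CPM at 29°C. Replicate 3 was the only mouse at 22°C within the range of the 29°C group, and replicates 1, 4 and 7 were the highest, as for *Nr4a1*. The log2 fold change was 1.21 ± 0.33 (SE; edgeR P-adj = 0.113). It passed the threshold without 22°C replicate 3 (P-adj = 0.0714), without 22°C replicate 6 (P-adj = 0.0954) and with DESeq2 (P-adj = 0.00974).

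The AP-1 factor is a dimer of a Fos and a Jun protein. *Fos* (ENSMUSG00000021250.14) had a lowest level of 2.22, a median of 23.5 and a highest level of 29.3 CPM at 22°C, and of 2.86, 3.27 and 18.2 CPM at 29°C. At 22°C 4 mice lay between 23.5 and 29.3 CPM, and at 29°C 4 mice lay between 2.86 and 3.34 CPM, yet replicate 3 at 22°C was the lowest mouse of all and replicates 4 and 6 at 29°C had 18.2 and 10.5 CPM. The log2 fold change was 1.34 ± 0.61 (SE; edgeR P-adj = 0.265). *Fosb* (ENSMUSG00000003545.4), whose truncated protein form is unusually stable, had 1.68, 11.0 and 28.7 CPM at 22°C and 0.352, 1.44 and 13.0 CPM at 29°C. Of the 6 mice at 29°C, 5 had at most 2.99 CPM and replicate 4 stood apart with 13.0 CPM. The log2 fold change was 1.66 ± 0.81 (SE; edgeR P-adj = 0.294).

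The Jun partners had smaller fold changes than either Fos gene, a difference that was not tested. *Jun* (ENSMUSG00000052684.5) had a lowest level of 45.8, a median of 70.3 and a highest level of 91.8 CPM at 22°C, and of 44.1, 58.0 and 84.1 CPM at 29°C, with a log2 fold change of 0.26 ± 0.19 (SE; edgeR P-adj = 0.484). *Junb* (ENSMUSG00000052837.8), which can dampen the activity of Jun, had 21.0, 35.2 and 37.9 CPM at 22°C and 18.8, 23.4 and 40.2 CPM at 29°C, with a log2 fold change of 0.29 ± 0.19 (SE; edgeR P-adj = 0.430). The ranges of both genes overlapped almost entirely. An antisense gene, *Junos* (ENSMUSG00000087366.8), was counted between 4.84 and 14.2 CPM and correlated with *Jun* at r = 0.89 over the 13 mice, and since the strand setting of the counts is not given, reads of the pair may have been exchanged.

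*Egr1* (ENSMUSG00000038418.8) encodes a zinc finger factor that in fat cells responds to insulin and growth factors. Its lowest, median and highest levels were 10.7, 32.0 and 64.4 CPM at 22°C and 6.64, 19.3 and 62.1 CPM at 29°C, so that the ranges nearly matched (log2 fold change 0.29 ± 0.53, SE; edgeR P-adj = 0.805). The size of this difference moved with the libraries used, being 0.055 without 22°C replicate 7, 0.72 without 29°C replicate 4 and 1.04 among the libraries with higher totals (SE 0.71; edgeR P-adj = 0.585), with no call in any of these fits. *Dusp1* (ENSMUSG00000024190.8), a phosphatase that switches off MAP kinases and so ends the response, had 43.2, 65.2 and 116 CPM at 22°C and 26.2, 51.4 and 74.1 CPM at 29°C. Replicate 1 was its highest mouse at 22°C and replicate 1 its lowest at 29°C, and the log2 fold change was 0.51 ± 0.24 (SE; edgeR P-adj = 0.276).

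Most of these genes varied more between mice of the same temperature than genes usually did in these libraries. The SD of log2 CPM within a temperature was 1.54 for *Fosb*, 1.26 for *Fos*, 1.22 for *Nr4a1* and 1.09 for *Egr1*, against a median of 0.241 over all tested genes, and these 4 genes lay at or above the 96.2 percentile of that distribution. *Nr4a3* was at the 92.7, *Atf3* at the 90.0, *Dusp1* at the 81.8, *Jun* at the 70.3, *Junb* at the 69.2 and *Nr4a2* at the 54.6 percentile. Per kilobase of exon, with lengths from an annotation release (GENCODE M21) other than that of the counts, the mean levels of *Jun*, *Dusp1* and *Junb* were highest, with 20.2, 18.7 and 12.6 CPM per kb. *Nr4a1* had 9.19, *Egr1* 6.85, *Fos* 5.32, *Atf3* 2.70, *Nr4a2* 1.60, *Fosb* 1.18 and *Nr4a3* 0.421 CPM per kb.

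The second comparison was with muscle RNA, read as log2 CPM of *Acta1* and tested as a slope across all genes with temperature in the fit. *Nr4a1*, *Atf3* and *Nr4a2* rose with *Acta1*, and the slopes of the other 7 did not pass the threshold. All 10 slopes were above 0, as were 47.7% of the slopes of all genes, and the 3 of 10 that were called rising compare with 6.66% of all genes. *Nr4a1* rose by 0.46 on the log2 scale per log2 unit of *Acta1* (SE 0.058; edgeR P-adj = 0.000145), which is 2.91-fold per 10-fold of *Acta1*, and *Acta1* accounted for 82.3% of the variance of its log2 CPM within temperatures. The slope of *Nr4a1* was called whichever of the 13 mice was omitted, at between 0.41 and 0.50, and without the libraries farthest in *Acta1* it was 0.36 ± 0.068 (SE; edgeR P-adj = 0.0162). With the replicate number as a block, none of the 3 genes was called. The slope of *Nr4a1* was then 0.26 ± 0.10 (SE), although nothing says that these numbers pair mice.

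The slope of *Atf3* was 0.19 ± 0.048 (SE; edgeR P-adj = 0.0324), with 54.2% of the variance within temperatures. It was no longer called without 22°C replicate 1 (P-adj = 0.160), without both 22°C replicates 1 and 7 (P-adj = 0.517), at 29°C alone (P-adj = 0.999) or with the mean log2 CPM of the muscle list, a muscle score, in place of *Acta1* (P-adj = 0.119). *Nr4a2* had a smaller slope of 0.083 ± 0.024 (SE; edgeR P-adj = 0.0628), with 59.0% of the variance, and lost its call without any 1 of 22°C replicates 1, 3, 5, 6 and 7 and without 29°C replicate 5, where P-adj was at most 0.133, as well as with the muscle score (P-adj = 0.166), without both 22°C replicates 1 and 7 (P-adj = 0.271) and at 22°C alone (P-adj = 0.165). *Nr4a1* was the only one of the 3 called with that score, at 0.37 ± 0.075 (SE; edgeR P-adj = 0.0123). For the genes that were not called, the slope was 0.14 (SE 0.075) for *Nr4a3*, 0.086 (SE 0.13) for *Fos*, 0.075 (SE 0.037) for *Jun*, 0.064 (SE 0.051) for *Dusp1*, 0.045 (SE 0.12) for *Egr1*, 0.041 (SE 0.19) for *Fosb* and 0.017 (SE 0.042) for *Junb*. The errors of *Nr4a3*, *Fos*, *Fosb* and *Egr1* are wide enough to hold a slope as large as that of *Atf3*.

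**Figure D2:**
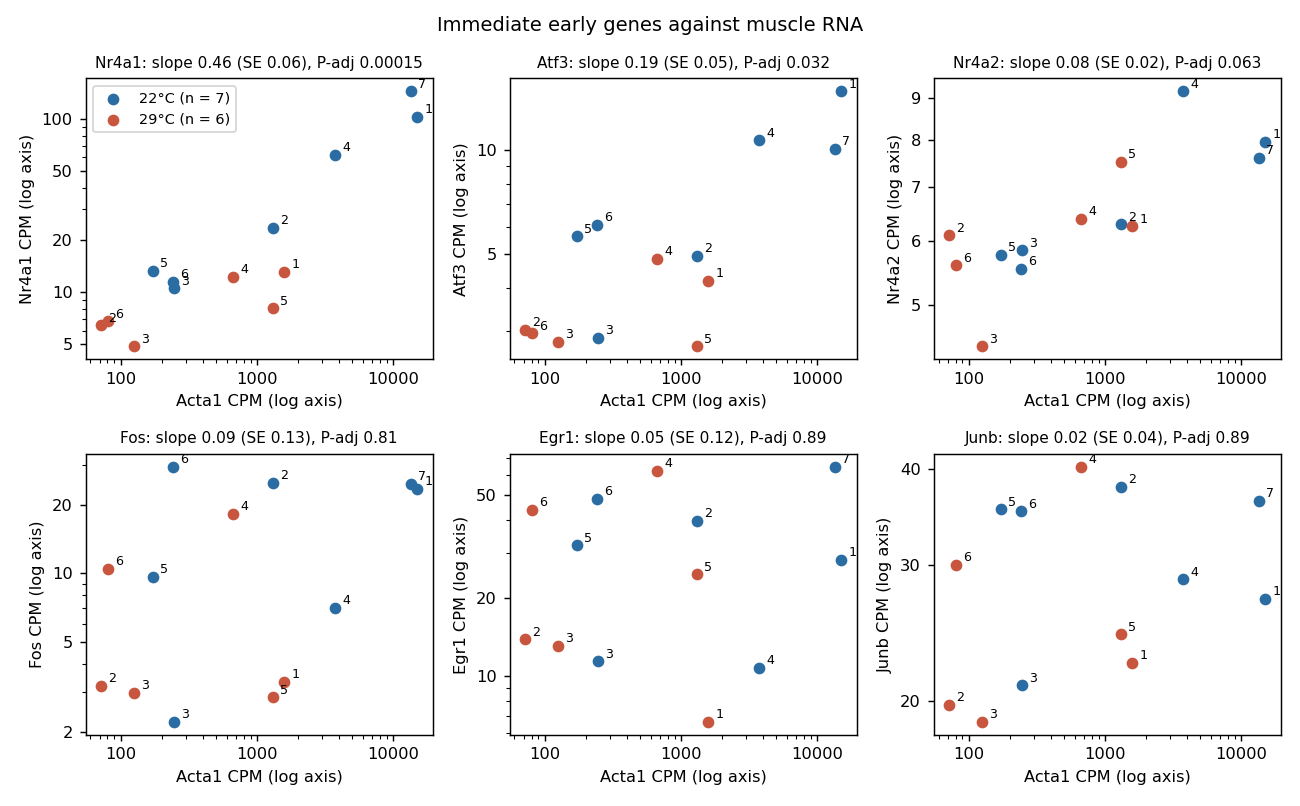
Level of 6 immediate early genes against the level of *Acta1* in the same mouse (both CPM, log axes), for 22°C (blue, n = 7) and 29°C (red, n = 6), with replicate numbers beside the points and the slope of the fit with temperature above each panel. At 22°C the 3 mice highest in *Acta1* are also the 3 highest in *Nr4a1*, while *Fos*, *Egr1* and *Junb* scatter at every level of *Acta1*.

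Muscle RNA was itself higher in some mice at 22°C, so the temperatures were compared once more with *Acta1* in the fit. None of the 10 genes was then called by edgeR, against 0.472% of all genes, and 3 of the 10 had an unadjusted p below 0.05, as did 12.4% of all genes. The log2 fold change of *Nr4a1* was 0.98 ± 0.31 (SE; P-adj = 0.221). With *Acta1* in the fit, *Atf3* differed by 0.68 ± 0.25 on the log2 scale (SE; P-adj = 0.287), *Nr4a3* by 1.02 ± 0.40 (P-adj = 0.307) and *Nr4a2* by -0.0010 ± 0.12 (P-adj = 0.998). For *Fosb* the log2 fold change was 1.60 (SE 0.86), for *Fos* 1.13 (SE 0.67) and for *Junb* 0.25 (SE 0.21), against 1.66, 1.34 and 0.29 without *Acta1*. Those of *Jun*, *Dusp1* and *Egr1* were 0.059 (SE 0.19), 0.32 (SE 0.27) and 0.19 (SE 0.59), against 0.26, 0.51 and 0.29. The fold change of each of the 10 genes was smaller with *Acta1* in the fit than without it. The part of muscle RNA in the temperature difference of *Nr4a1* was not tested beyond these fits.

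**Figure D3:**
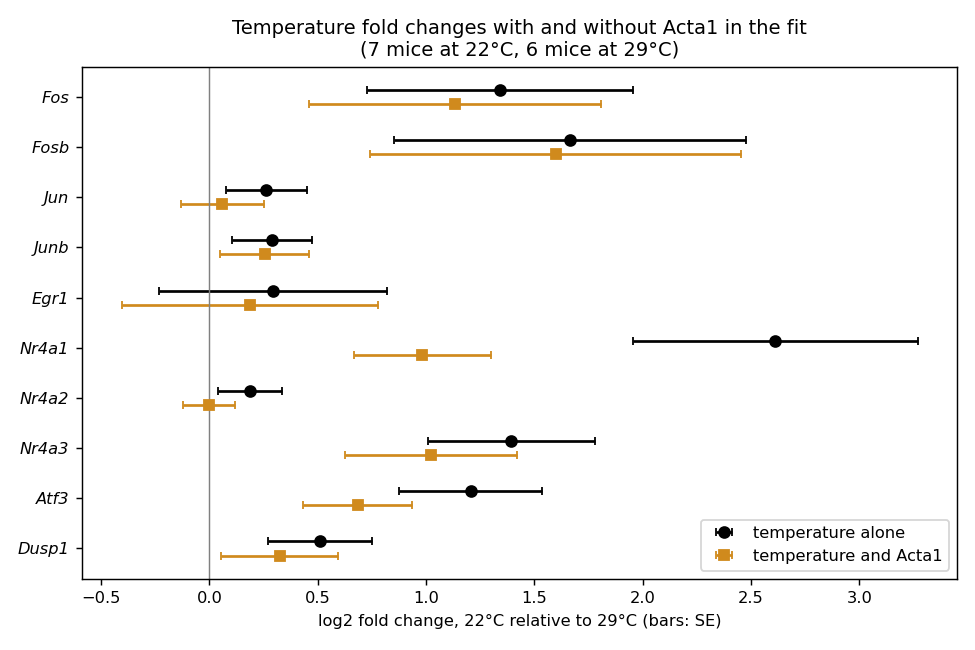
Log2 fold change of each immediate early gene, 22°C relative to 29°C, from edgeR with temperature alone (black circles) and with temperature and *Acta1* (orange squares), bars showing the SE (7 and 6 mice). *Nr4a1* moves from 2.61 to 0.98, whereas *Fosb* stays between 1.60 and 1.66.

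The relation with *Acta1* was also read within each temperature. Among the 7 mice at 22°C, *Nr4a1* had a slope of 0.56 ± 0.041 (SE; edgeR P-adj = 4.79e-05), and *Atf3*, *Jun* and *Dusp1* were called as well, with slopes of 0.23, 0.13 and 0.13. These 4 of 10 compare with 7.67% of all genes called at 22°C alone. Among the 6 mice at 29°C, where *Acta1* spanned a narrower range, the slope of *Nr4a1* was 0.22 ± 0.069 (SE; edgeR P-adj = 0.820). None of the 9 genes that could be tested there was called, and only 70 of all genes tested at 29°C alone were. The difference between the 2 slopes was tested directly and was not called by edgeR for any of the 10, against 0.0225% of all genes, and 3 of the 10 had an unadjusted p below 0.05, as did 7.56% of all genes. For *Nr4a1* it was 0.34 ± 0.084 (SE; edgeR P-adj = 0.334), for *Dusp1* 0.25 ± 0.092 (SE; P-adj = 0.540) and for *Jun* 0.17 ± 0.070 (SE; P-adj = 0.608).

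The 10 genes did not vary as 1 block over the mice. Pearson correlations of log2 CPM over the 13 mice, after the mean of each temperature was taken off, had a median of 0.40 over the 45 pairs and ran from -0.33 to 0.86. They are given as descriptions, since all points share libraries and depth. *Fos*, *Fosb*, *Junb* and *Egr1* correlated with each other at between 0.72 and 0.83 in all 6 pairs. *Nr4a1*, *Nr4a2* and *Atf3* correlated at between 0.62 and 0.86 in all 3 pairs. These are the 3 genes called for *Acta1* in the same libraries, so their correlation is no result separate from those slopes. The 12 pairs between these sets, which were picked after the values were seen, had a median of 0.13 with a range from -0.33 to 0.53. At 22°C and 29°C taken alone, *Nr4a1* and *Nr4a2* correlated at 0.86 and 0.61, *Nr4a1* and *Atf3* at 0.86 and 0.86, and *Nr4a2* and *Atf3* at 0.79 and 0.22. *Jun* and *Dusp1* correlated at 0.86 with each other, at 0.66 and 0.47 with *Nr4a1*, and at 0.60 and 0.63 with *Fos*. With *Atf3* and *Nr4a2*, *Jun* correlated at 0.76 and 0.43, so that the second set is not clearly apart from *Jun*. For example, 22°C replicate 4 was 0.94 log2 units above its group mean in *Nr4a1* and 0.89 below it in *Fos*, while 22°C replicate 6 was 1.48 below in *Nr4a1* and 1.16 above in *Fos*. At 29°C, replicate 4 was above its group mean in all 10 genes, by 1.82 log2 units in *Fos* and 1.57 in *Egr1*.

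**Figure D4:**
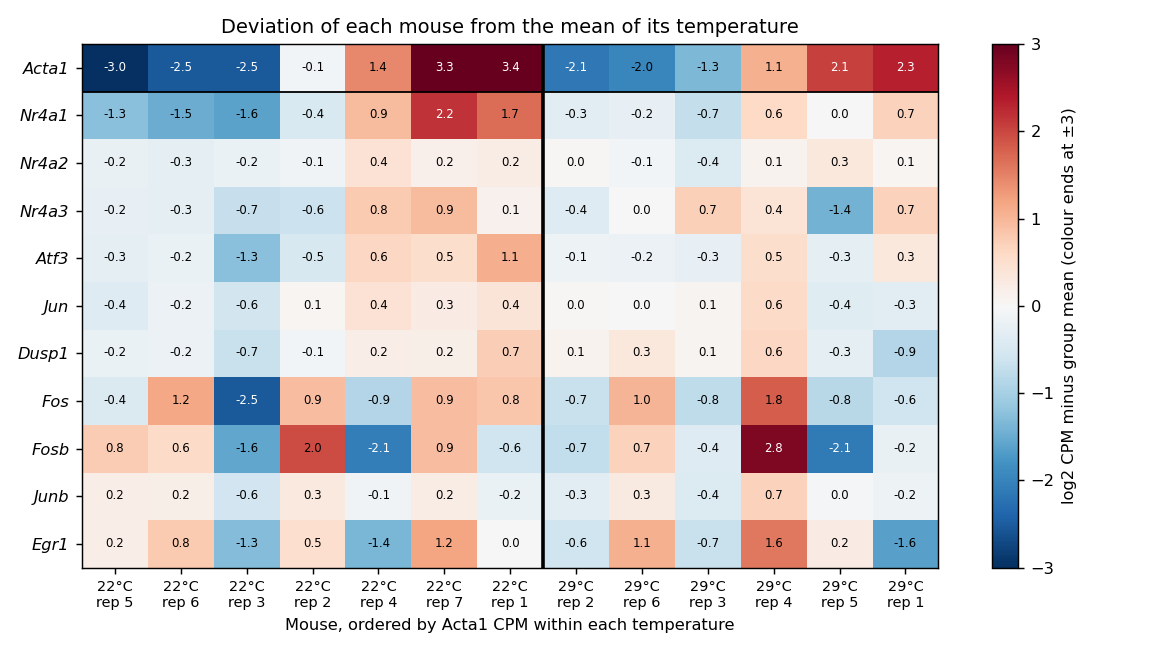
Deviation of log2 CPM of each mouse from the mean of its temperature (numbers and colour) for *Acta1* and the 10 immediate early genes, with mice ordered by *Acta1* within 22°C (left) and 29°C (right). At 22°C the 3 mice lowest and the 3 mice highest in *Acta1* are also the lowest and highest in *Nr4a1*, while *Fos*, *Fosb*, *Junb* and *Egr1* share their high and low mice in another order.

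**Figure D5:**
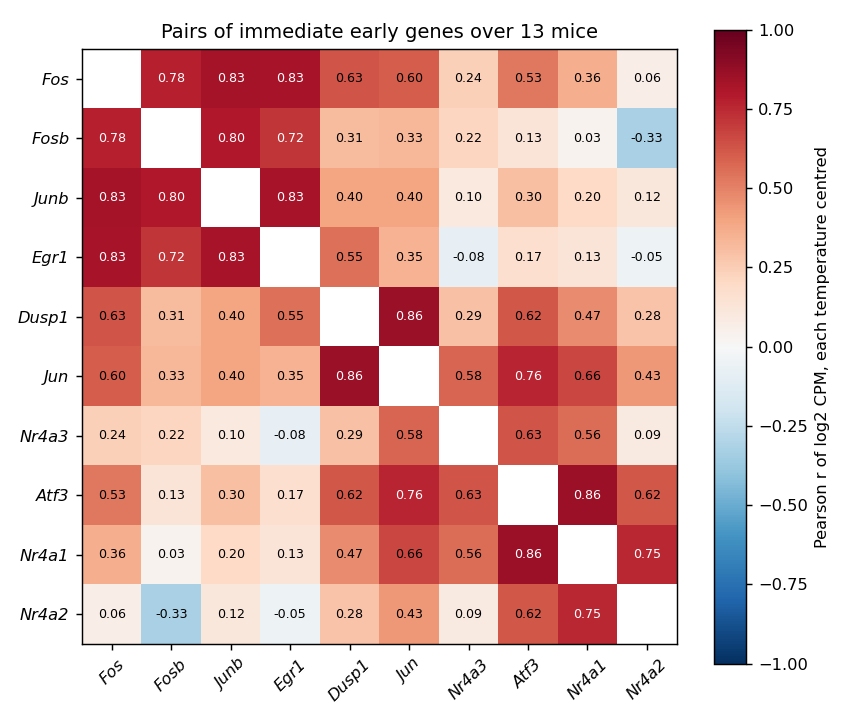
Pearson correlation of log2 CPM between pairs of immediate early genes over 13 mice, each temperature centred on its own mean. The 6 pairs of *Fos*, *Fosb*, *Junb* and *Egr1* lie between 0.72 and 0.83. The pairs of *Nr4a1*, *Nr4a2* and *Atf3* lie at 0.62 to 0.86, and *Jun* with *Atf3* at 0.76.

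All tested genes were searched for those that varied most like the 10 genes. By the measure used for the pairs, the genes most like the mean of the 10 were *Adamtsl5* (r = 0.91), *Scnm1* (r = 0.90) and *Fam189b* (r = 0.90), followed by *Gm30003*, *Ccn3*, *Pthlh*, *Nup93*, *Nacad*, *Tle6* and *Itga9*, the tenth at r = 0.85. Separate searches for *Nr4a1* and for *Fos* were added after the values were seen. Each search kept only the highest correlations among all tested genes. Whether these values exceed the highest that chance would give over so few mice was not tested. The genes most like *Nr4a1* were *Car14* (r = 0.98), *Sel1l3* (r = 0.98) and *A230065N10Rik* (r = 0.98), with slopes on *Acta1* of 0.28, 0.85 and 0.61. Because *Nr4a1* itself rose with *Acta1*, such slopes follow from how these genes were picked and are no separate result. Those most like *Fos* were *Pthlh* (r = 0.90), *Wrap73* (r = 0.88), *BC028528* (r = 0.88) and *Eln* (r = 0.87). None of them was called for its slope, nor was *Fos*, by which they were picked.

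Relatives and regulators of the 10 were counted in the same fits. For the counts at an unadjusted p below 0.05 given here and for the lists of other cells, the share over all tested genes was 18.5%. Of 10 other AP-1 and ATF proteins, 1 was called higher at 22°C, *Atf4*, the factor of the integrated stress response (133 ± 11.3 against 97.7 ± 13.6 CPM, mean ± SD; log2 fold change 0.45 ± 0.09, SE; edgeR P-adj = 0.0610), and none was called for *Acta1*. *Jund* and *Fosl2*, the most abundant AP-1 proteins of this list beside *Atf4*, had log2 fold changes of 0.20 (SE 0.14) and -0.30 (SE 0.19). None of 4 EGR factors and NAB corepressors was called by edgeR for temperature, 0 of them at an unadjusted threshold of 0.05, and *Egr3* had 4.53 ± 2.95 CPM (SD) at 22°C and 5.35 ± 5.80 CPM (SD) at 29°C. None of 30 other immediate early genes was called by edgeR for temperature (8 at an unadjusted threshold of 0.05), 20 of the 30 were above 0 and the median was 0.24 on the log2 scale. Among them *Rhob*, *Klf6* and *Zfp36* were the most abundant, at log2 fold changes of -0.25, -0.18 and -0.042.

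Counts of genes called for *Acta1*, here and for the lists of other cells, compare with 6.66% of all genes called rising and 321 of 17778 called falling. With *Acta1*, 4 of the 30 rose, namely *Sgk1*, a kinase induced by hormones and stress (slope 0.16 ± 0.040, SE; edgeR P-adj = 0.0282), *Gadd45b* (slope 0.21), *Gadd45g* (slope 0.14) and *Pim1* (slope 0.11). Among 12 MAP kinase phosphatases and feedback inhibitors, *Dusp8* and *Spry2* rose with *Acta1* and *Spred2* fell. Of 21 upstream kinases and factors, *Mrtfb* rose and *Mapk3* fell, and of 10 cAMP response genes of fat, *Pde4b* and *Pde4d*, which degrade cAMP, rose with slopes of 0.33 and 0.23, while *Lipe* and *Adrb3*, the lipase and the β3-adrenergic receptor of fat cells, fell with slopes of -0.077 and -0.14. None of the genes of these 3 lists was called by edgeR for temperature, and 1, 2 and 4 of them passed an unadjusted threshold of 0.05. *Pde4b* was steeper at 22°C than at 29°C by 0.47 ± 0.062 (SE; edgeR P-adj = 0.0679).

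Lists that mark stress, time of day and other cells were set beside these results. Of 10 heat shock genes, none was called by edgeR for temperature (4 at an unadjusted threshold of 0.05), and *Hspb1* and *Bag3* rose with *Acta1*. Log2 fold changes were below 0 for 7 of these 10, as for 8612 of 17779 tested genes, with a median of -0.13. *Hspa8*, the most abundant of them, had a log2 fold change of -0.42 ± 0.12 (SE; edgeR P-adj = 0.119). In the list of 16 circadian genes, *Ciart* was called higher at 22°C (log2 fold change 0.80) and *Arntl* rose with *Acta1*. All 22 muscle genes had log2 fold changes above 0, a median of 2.97 and no call by edgeR (15 of 22 at an unadjusted threshold of 0.05), and the 21 beside *Acta1* all rose with it. Of 8 tested lymphocyte genes, *Cd3e* was called higher at 22°C at about 1 CPM (log2 fold change 1.78 ± 0.42, SE; edgeR P-adj = 0.0817). Of the 10 adipocyte genes, *Lep* was called lower (log2 fold change -0.78 ± 0.15, SE; edgeR P-adj = 0.0564). Over all tested genes 0.731% were called higher at 22°C and 215 of 17779 lower. No gene of the macrophage, endothelium, fibroblast, blood, mural or epidermis lists was called for temperature, and *Hba-a2* fell with *Acta1*. The part of these cells and genes in the levels of the immediate early genes was not tested.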

How the data were processed

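RNA of gluteal WAT from 13 mice was analysed. Per the labels and processing notes, the authors aligned reads with STAR 2.7.5a to GRCm39 and deposited raw counts per gene from featureCounts. A second table deposited by the authors holds log2 values from the regularized transformation of DESeq2. The annotation release and strand setting are not given in the sources used here. Gene names were matched by identifier without its version (34006 genes).

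Counts were compared with edgeR 4.0.16 (TMM, filterByExpr, quasi-likelihood F test, Benjamini-Hochberg adjustment over all tested genes) in R 4.3.3. The SE of an estimate is its size over the root of the F statistic. Log2 CPM used a prior count of 2. The slope on log2 CPM of *Acta1* was fitted with temperature in the model, and its difference between temperatures as an interaction. The methods were tested on simulated data. A count of 0 would allow up to 3 counts (0.113 to 0.158 CPM, counting error only). No pair of the 13 libraries agreed within sampling noise (lowest chi-square per gene 16.9 over 78 pairs), so each was 1 replicate.

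The 10 genes and all lists were chosen with earlier results of these data known. Named besides them are a part of the genes a rule gives (called and most abundant genes of each list, and the 10 genes most like their mean). Genes named for an *Acta1* slope were chosen after their values were seen.

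Alternatives were DESeq2 1.42.0, its size factors, other filters on low counts, robust dispersion, the replicate number as a block, each mouse left out, *Acta1* or the mean log2 CPM of the muscle list as a covariate, muscle genes removed, the cluster of library totals, limma 3.58.1 on the authors' log2 values and P-adj below 0.05. For the slope they also included each temperature alone, no temperature term and leaving out the 2 libraries farthest in *Acta1*. The last was added for the temperature fit after the data were seen.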

Additional observations from a re-analysis of the deposited data

Results flagged for a closer look

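*Fosb* in 29°C replicate 4 was 13.0 CPM, whereas the nearest of the other 5 mice at 29°C had 2.99 CPM. The gap was 0.792 of the whole range of the group in CPM, above Dixon's critical value. On the log2 scale this mouse had 3.71, the nearest 1.62 and the lowest -1.20, a gap below that critical value. The flag therefore depends on the scale. CPM of the 10 genes and *Acta1* at the 2 temperatures, 22 groups of libraries in all, were examined this way. Chance flags about 1 in 20 groups where values are normally distributed, which was not examined for CPM. Without this mouse the log2 fold change of *Fosb* was 2.88 (P-adj = 0.131, edgeR).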

How the results depend on the processing

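Between temperatures 1 of the 10 genes and 345 of all genes were called. DESeq2 called 3 (*Nr4a1*, *Nr4a3* and *Atf3*) and 1676, and leaving out each mouse gave 0 to 3 and 32 to 652. The 10 had 0 calls, and all genes 42, without a filter on low counts, 0 and 84 with *Acta1* as a covariate, 0 and 46 with the muscle score, 0 and 4 with the cluster of library totals, 0 and 8 among libraries of the higher cluster, and 0 and 40 at P-adj below 0.05. They also had 0 calls, and all genes 330, with robust dispersion, 0 and 356 with limma, and 0 and 263 without 22°C replicates 1 and 7. Under these settings the log2 fold change of *Nr4a1* was between 0.98 and 3.18. *Nr4a2* changed sign, to -0.0010 with *Acta1* and -0.0032 with the muscle score.

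For *Acta1*, 3 of the 10 and 1505 genes were called. Counts were 1 and 1021 with the muscle score, 0 and 70 at 29°C alone, and 1 and 422 without 22°C replicates 1 and 7. With no temperature term they were 4 and 2265, with *Nr4a3* called as well. Leaving out each mouse gave 1 to 3 and 837 to 1592, the lower counts without 22°C replicates 1 and 7. Slopes below 0 were found at 22°C alone for *Fosb* (-0.031), at 29°C alone for *Jun* (-0.040) and *Dusp1* (-0.11), and without 22°C replicates 1 and 7 for *Egr1* (-0.082) and *Dusp1* (-0.0099). With each mouse left out, slopes ran from -0.082 to 0.12 for *Fosb*, from -0.0041 to 0.037 for *Junb* and from -0.047 to 0.093 for *Egr1*. *Fosb* did not pass the filter at 29°C alone. The cause of these changes was not tested.

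Replicate numbers are shared by both temperatures, but nothing says that they pair mice. Deviations of same-numbered mice correlated at 0.051 to 0.51, and 2 of 6 mice at 29°C matched best with their own number. A replicate block left 1 of the 10 and 214 of all genes called for temperature, and 0 of the 10 and 189 of all genes for *Acta1*, with slopes of 0.26 for *Nr4a1*, 0.086 for *Nr4a2*, 0.036 for *Atf3*, -0.31 for *Fosb*, -0.0039 for *Junb* and -0.19 for *Nr4a3*.

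The comparison rests on 7 and 6 mice, with *Acta1*, the library totals and temperature partly moving together. *Nr4a3* and *Fosb* had as few as 10 and 9 counts in a library, which limits their precision.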
